A study of Mus musculus with 4 samples.

Results

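Macrophage-marker-rich spots were examined in spatial transcriptomes of the inflamed mouse pancreas. A spot is a small barcoded region of the capture slide that can hold several cells, so these spots are regions and not isolated macrophages. Spots with at least 500 UMIs (unique molecular identifiers, each standing for 1 captured molecule) were ranked within their section by the summed UMIs of Cd68, Lyz2, C1qa, C1qb and Csf1r divided by the total UMIs of the spot. The 200 highest with at least 2 UMIs of the 5 genes were taken. This gave 642 spots of the 26960 with at least 500 UMIs, with 200 of 6144 in Ehmt2+/+ replicate 1, 42 of 7871 in Ehmt2+/+ replicate 2, 200 of 6483 in Ehmt2fl/fl replicate 1 and 200 of 6462 in Ehmt2fl/fl replicate 2. Values below follow this order of sections unless another is named. In Ehmt2+/+ replicate 2 only 42 spots held 2 or more UMIs of the 5 genes, so all were taken. The choice rests on these counts, and the levels of the 5 genes in the chosen spots are therefore given as a description without a test.

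All 4 sections came from the pancreas of C57Bl/6 mice that carried Pdx1-Cre and had received caerulein, a cholecystokinin analogue that causes acute pancreatitis, at 50 μg/kg once an hour for 8 injections. The mice were 4 weeks old by the study's methods, had gone 12 h without food when dosing began, and were killed 18 h after the first dose. Pdx1-Cre is active in the pancreatic epithelium, so Ehmt2, which encodes a histone H3 lysine methyltransferase, was deleted in the epithelium of Ehmt2fl/fl mice and left intact in Ehmt2+/+ mice, both of which carry Cre. There are 2 sections per genotype and no saline section was analysed here.

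Macrophages are phagocytes that live in most tissues and are joined during inflammation by cells that arise from blood monocytes. In acute pancreatitis they take up debris of injured acinar cells and release chemokines and growth factors. Their growth and survival depend on the receptor encoded by Csf1r. C1qa and C1qb encode chains of the complement recognition protein C1q, for which macrophages are a main source, Cd68 encodes a lysosomal membrane glycoprotein, and Lyz2 encodes the lysozyme of myeloid cells.

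The sections differed in depth and composition. The spots with at least 500 UMIs held 43784930 and 7845575 UMIs in Ehmt2+/+ replicates 1 and 2 and 6643747 and 7938386 in Ehmt2fl/fl replicates 1 and 2. The chosen spots held 1139035, 53649, 164747 and 189869 UMIs in the same order. Their median was 5525 UMIs per spot in Ehmt2+/+ replicate 1, against 943, 773 and 853.5 in the other sections. The 36 digestive enzyme genes measured took 61.9% and 40.8% of the UMIs of the chosen spots in Ehmt2+/+ and 12.6% and 11.4% in Ehmt2fl/fl. Values scaled to 1000000 UMIs (CPM) therefore share a denominator that these enzymes fill to different degrees. The 4 files list 13898 barcodes in common, which are positions of the slide design and not shared cells.

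Genes of the Y chromosome separated the genotypes. Over the spots with at least 500 UMIs, Ddx3y had 1 and 0 UMIs in Ehmt2+/+ and 53 and 92 in Ehmt2fl/fl. Eif2s3y, another Y-linked gene, had 1 and 0 against 97 and 139. Xist, expressed from the inactive X chromosome, had 0 UMIs in every section. Only 20381 of the 32285 genes listed had any UMI over these spots, so this 0 may stand for a gene that was not measured. The genotype groups therefore differ in counts of Y-linked genes as well as in Ehmt2, and the 2 differences cannot be told apart. Whether the Y-linked counts in Ehmt2fl/fl stand clear of background was not tested. Ehmt2 itself had 865 and 31 UMIs in Ehmt2+/+ and 67 and 96 in Ehmt2fl/fl, or 19.8, 3.95, 10.1 and 12.1 CPM. The groups thus overlapped. Olfactory receptor genes served as background, as described below. None (0%) reached the share of spots with Ehmt2 in Ehmt2+/+ replicate 1, but 71.7%, 33.5% and 54.1% did in the other sections. Ehmt2 was thus not clear of background there, and its level does not check the labels. Ddx3y had fewer UMIs than Ehmt2 in both Ehmt2fl/fl sections, and Eif2s3y had more.

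The chosen spots carried few marker molecules each. Of the 642 spots, 358 (55.8%) held exactly 2 UMIs of the 5 genes and 203 (31.6%) held 3, and 1 spot held 8. The median score was 4.06 and 21.7 marker UMIs per 10000 UMIs in Ehmt2+/+ replicates 1 and 2 and 34.0 and 27.2 in Ehmt2fl/fl replicates 1 and 2. No spot held all 5 genes. A single gene of the 5 supplied the score in 26.5%, 35.7%, 18% and 20% of the chosen spots, in the same order. At the edge of the choice, the last spot taken in Ehmt2fl/fl replicate 1 held 2 marker UMIs of 718, and the next held 3 of 1079. In Ehmt2+/+ replicate 1 the last spot held 2 of 7431 and the next 3 of 11163, and in Ehmt2fl/fl replicate 2 they held 2 of 929 and 2 of 931. Spots on both sides of the edge were alike.

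**Figure D1:**
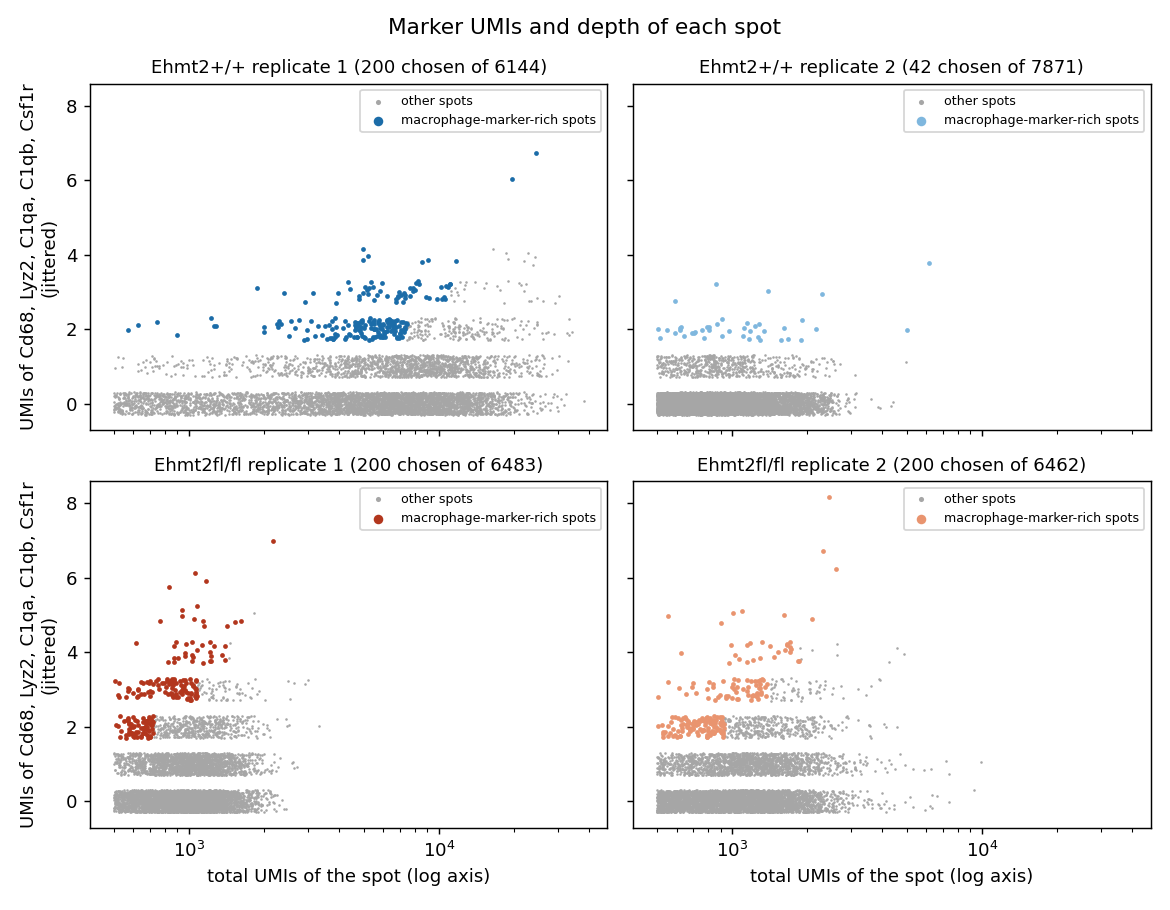
Each point is 1 spot with at least 500 UMIs, with its total UMIs on the x axis (log axis) and its UMIs of Cd68, Lyz2, C1qa, C1qb and Csf1r on the y axis, jittered around whole numbers; coloured points are the chosen spots of each section. In Ehmt2+/+ replicate 2 only 42 spots reached 2 marker UMIs, and in Ehmt2+/+ replicate 1 the chosen spots lie at higher totals, with a median of 5525 UMIs.

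C1qa and Cd68 supplied most of the marker UMIs. In the chosen spots, C1qa (ENSMUSG00000036887; GRCm38 chr4:136895917-136898803, minus strand) had 146 and 39 UMIs in Ehmt2+/+ replicates 1 and 2 and 230 and 202 in Ehmt2fl/fl replicates 1 and 2. Cd68 (ENSMUSG00000018774; chr11:69664213-69666153, minus strand) had 196, 18, 176 and 167. Cd68 was the most counted of the 5 in Ehmt2+/+ replicate 1 and C1qa in the other sections. C1qb (ENSMUSG00000036905; chr4:136880129-136886187, minus strand), which encodes the chain that assembles with C1qa and C1qc, had 63, 11, 92 and 72 UMIs. Csf1r (ENSMUSG00000024621) had 60, 15, 83 and 79. Lyz2 (ENSMUSG00000069516; chr10:117277331-117282321, minus strand) contributed 7, 7, 9 and 16 UMIs and was present in 3.5%, 14.3%, 4.5% and 8% of the chosen spots.

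The label was checked against background counts. Olfactory receptor genes have no known use in the pancreas, and 1135 of them were measured. For each gene, the share of all spots of a section with at least 1 UMI was set beside that of these receptors in the same spots, at the same depth. Lyz2 was not clear of this background: 13.7% and 58.2% of the receptors reached its share in Ehmt2+/+ replicates 1 and 2, and 30.1% and 41.9% did in Ehmt2fl/fl replicates 1 and 2. No receptor (0%) reached Cd68 or C1qa in any section. In Ehmt2+/+ replicate 2, 1.76% of the receptors reached C1qb and 0.176% reached Csf1r, and none (0%) did in the other sections. Adgre1, which encodes the macrophage surface protein F4/80, had 36, 42, 72 and 100 UMIs in all spots with at least 500 UMIs, and 0.793%, 42.9%, 30.1% and 48.6% of the receptors reached its share. The name of these spots therefore rests mainly on Cd68, C1qa, C1qb and Csf1r, with little from Lyz2.

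The promoters of 2 of the marker genes and of the chemokine gene Ccl6 are shown because these genes were counted together in the chosen spots. The sequences are the 200 bases before the RefSeq start, on the minus strand of GRCm38.p6, and belong to chr4:136886201-136886400 (C1qb), chr11:69666171-69666370 (Cd68) and chr11:83593088-83593287 (Ccl6). Capitals mark GAGGAA or its reverse complement TTCCTC, the core bound by the myeloid factor PU.1, and TGACTCA or TGAGTCA, the site of AP-1.
C1qb: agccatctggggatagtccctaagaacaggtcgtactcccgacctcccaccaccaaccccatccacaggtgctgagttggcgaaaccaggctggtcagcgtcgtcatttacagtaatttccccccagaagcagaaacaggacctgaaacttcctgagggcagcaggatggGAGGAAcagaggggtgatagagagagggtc
Cd68: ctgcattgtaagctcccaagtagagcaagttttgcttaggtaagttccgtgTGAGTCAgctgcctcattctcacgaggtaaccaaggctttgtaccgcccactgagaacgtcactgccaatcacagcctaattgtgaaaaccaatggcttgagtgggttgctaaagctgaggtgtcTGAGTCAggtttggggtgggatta
Ccl6: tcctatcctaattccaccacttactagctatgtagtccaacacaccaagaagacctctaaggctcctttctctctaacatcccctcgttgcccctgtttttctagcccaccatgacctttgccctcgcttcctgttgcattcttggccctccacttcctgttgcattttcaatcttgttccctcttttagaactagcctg
The C1qb window held 1 match to the PU.1 core, the Cd68 window 2 matches to the AP-1 site, and the Ccl6 window neither. Among 27025 RefSeq promoters, windows of the same length held the PU.1 core on either strand in 18.9% and the AP-1 site in 3.63%. A match is a run of letters and not a measured binding site.

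The chosen spots were compared with the other spots of the same section to describe what lay beside the marker genes. Because the ranking uses this contrast, no test is given. Genes of the macrophage identity list (18 genes outside the 5, such as Maf, Mrc1, Fcgr1 and Aif1) had a summed level of 226 and 559 CPM in the chosen spots of Ehmt2+/+ replicates 1 and 2, against 123 and 287 CPM in the other spots. In Ehmt2fl/fl replicates 1 and 2 it was 3199 and 2549 CPM, against 1649 and 1493. The ratios of chosen to other spots were thus 1.83, 1.95, 1.94 and 1.71, above 1 in all 4 sections and of similar size in both genotypes. Without the digestive enzymes in the denominator they were 1.67, 1.50, 1.71 and 1.50. The olfactory receptors gave 1.47, 2.12, 1.32 and 1.26 with the enzymes in the denominator and 1.34, 1.63, 1.16 and 1.10 without them. In Ehmt2+/+ replicate 2 the background genes were thus as enriched as the macrophage genes, while in the other 3 sections they were less so.

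Gene by gene, Ccl6 stood out. It encodes a CC chemokine made by macrophages and granulocytes, and it was the only gene of 302 with at least 10 UMIs in the chosen spots of each section that was at least 2-fold higher in all 4 (0.331%). Its chosen spots held 150 and 16 UMIs in Ehmt2+/+ and 496 and 420 in Ehmt2fl/fl, with ratios to the other spots of 2.26, 3.01, 2.46 and 2.10. The limit of 10 UMIs was set in the chosen spots, so a gene that is high there passes it more easily, and Ccl6 had 5.32 UMIs expected from its level in the other spots of Ehmt2+/+ replicate 2. The count is therefore a description and supports nothing. No gene of 231 was at least 2-fold lower in all 4 sections (0%). With CPM computed without the digestive enzymes, or with Cd68, C1qa or Csf1r left out of the score, no gene was 2-fold higher in all 4 sections.

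The 42 spots of Ehmt2+/+ replicate 2 limited that list of genes. Over the other 3 sections, 10 of 2343 genes were at least 2-fold higher in each (0.427%) and 0 of 2093 at least 2-fold lower (0%). The same limit applied, and Mrc1, Fgd2, Ednrb and Wfdc17 passed it in Ehmt2+/+ replicate 1 with fewer than 10 UMIs expected from the other spots. Fgd2 had fewer than 10 expected in all 3 sections, at 3.55, 7.60 and 8.99. Mrc1, the mannose receptor of tissue macrophages, had the largest median ratio, with 19 UMIs in Ehmt2+/+ replicate 1 and 47 and 50 in Ehmt2fl/fl, and ratios of 2.86, 3.44 and 2.09. Ccr2, the receptor by which monocytes leave the marrow and enter tissue, had 59, 76 and 70 UMIs and ratios of 2.48, 2.44 and 2.13. Fcer1g, the signalling chain shared by Fc receptors, had 76, 133 and 93 UMIs and ratios of 2.79, 2.19 and 2.15. The others were the chemokine genes Ccl6, Ccl9 and Pf4, the fibronectin gene Fn1, Fgd2, Wfdc17 and the endothelin receptor gene Ednrb.

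Counts of list members in these 3 sections were read against all genes. Of 9262 genes outside the 5 with at least 10 UMIs expected in the chosen spots from their level in the other spots, 2469 (26.7%) were higher in the chosen spots of all 3 sections. Of the macrophage identity list, 16 genes passed this limit and 14 were higher in all 3 (87.5%), with a median log2 ratio of 0.72 against 0.16 for all genes. All 13 pan-leukocyte genes that passed, among them Fcer1g, Tyrobp and Itgb2, were higher in all 3 sections. Of the chemokine and colony-stimulating factor list 9 of 14 were, of the lysosome list 14 of 20, and of the inflammatory monocyte list 5 of 8. Lists of other cells were mixed, with 8 of 11 fibroblast, 3 of 6 endothelial, 0 of 10 duct and 0 of 6 islet genes.

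Lists of myeloid functions differed in their ratios. The chemokine and colony-stimulating factor list, led by Ccl6, had ratios of 2.10, 2.46, 2.09 and 1.89. The resident macrophage list, which holds Mrc1, F13a1 and Gas6, had ratios of 1.77, 2.10, 2.08 and 1.90. The inflammatory monocyte list, which holds Plac8 and Il1rn, had ratios of 1.93, 1.77, 1.40 and 1.38. These lists were higher in the chosen spots of every section. In Ehmt2+/+ they were higher by about as much as the macrophage identity list. In Ehmt2fl/fl the monocyte list was higher by less than that list, and lay near the 1.32 and 1.26 of the olfactory receptors. In Ehmt2+/+ replicate 2 the resident macrophage and monocyte lists were not above the 2.12 of these receptors. The lipid and phagocytosis list, led by Spp1, Fabp4 or Apoe, had ratios of 1.48, 1.92, 1.26 and 1.27, no clearer than the 1.47, 2.12, 1.32 and 1.26 of the olfactory receptors. The lysosome list had ratios of 1.13, 0.902, 1.29 and 1.18, and its most counted gene, Ctsl, which the acinar cell also expresses, had 1.10, 0.810, 0.810 and 0.817. Ctss, a cathepsin largely confined to phagocytes and antigen-presenting cells, had 2.81, 3.55, 2.04 and 1.95, from 87, 8, 189 and 142 UMIs. The 2 cathepsin genes thus ran opposite ways in 3 of the 4 sections. Cfp, which encodes the complement regulator properdin, had 33, 5, 107 and 114 UMIs and ratios of 1.77, 3.29, 2.35 and 2.65.

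Genes that define macrophages were followed singly. Maf had 38, 3, 128 and 122 UMIs in the chosen spots and ratios of 1.78, 1.03, 2.27 and 1.92. Fcgr1, the high-affinity receptor for IgG, had 29, 5, 73 and 63 UMIs and ratios of 1.88, 3.30, 1.83 and 1.80. Aif1, a cytoskeletal protein of macrophages, had 20, 2, 51 and 36 UMIs and ratios of 2.24, 1.58, 2.29 and 1.98. All 3 genes were higher in the chosen spots of each section, on 5 UMIs or fewer in Ehmt2+/+ replicate 2. C1qc, which was not in the score, had 10, 0, 29 and 20 UMIs, with ratios of 1.24, 1.98 and 1.65 in the sections where it was counted. Adgre1 had 0 UMIs in the chosen spots of both Ehmt2+/+ sections and 4 in each Ehmt2fl/fl section, and the scavenger receptor gene Cd163 had 2, 0, 3 and 11. In Ehmt2+/+ replicate 2, 5 of the 18 genes of the list were at 0 in the chosen spots.

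Lists of other cell types in the same spots were uneven between sections. Fibroblast genes, led by Col3a1 in Ehmt2+/+ replicate 1 and Col1a2 in the other sections, had ratios of 1.68, 1.58, 1.34 and 1.34. Of the 642 chosen spots, 10, 0, 11 and 5 were also among the 200 spots per section richest in collagen and proteoglycan genes. MHC class II genes, led by Cd74, had ratios of 1.65, 4.31, 1.19 and 1.18, highest in Ehmt2+/+ replicate 2. B and plasma cell genes were also highest there, at 5.63 against 1.51, 1.24 and 1.14. Spots with at least 10 UMIs per 10000 from the T and B cell lists made up 0%, 19.0%, 21% and 21.5% of the chosen spots. They made up 0.151%, 8.16%, 13.2% and 16.8% of the other spots. At the median depths of 943, 773 and 853.5 UMIs, 1 UMI passes this limit, while more are needed at the 5525 of Ehmt2+/+ replicate 1. These shares therefore depend on depth, and the part of background in them was not tested. Islet genes, led by Ins2, had a ratio of 4.87 in Ehmt2+/+ replicate 1 and of 0.511, 0.146 and 1.01 in the other sections. In that section 14 of the 200 chosen spots took at least 1% of their UMIs from islet genes. Digestive enzymes, led by Ctrb1, had ratios of 0.950, 0.749, 0.548 and 0.509, below 1 in all 4 sections. The part of lymphoid, islet and acinar tissue in the other ratios was not tested.

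**Figure D2:**
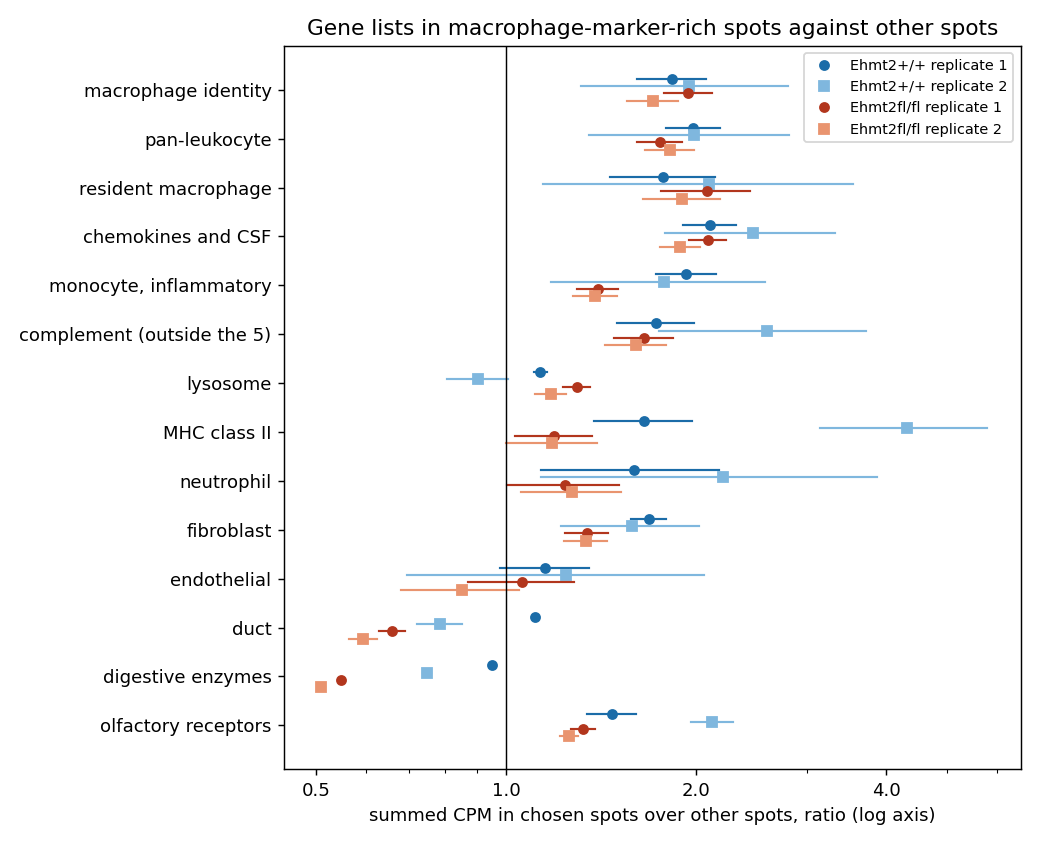
Ratio of summed CPM in macrophage-marker-rich spots to the other spots of the same section (x axis, log axis) for 14 gene lists outside the 5 marker genes, 1 point per section with a 95% interval for counting error only. Macrophage identity genes lie between 1.71 and 1.95, olfactory receptors between 1.26 and 2.12, and digestive enzymes between 0.509 and 0.950.

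Each marker gene was also followed in spots chosen without it. When Cd68 was left out of the score, the spots chosen by the other 4 genes held Cd68 at ratios to the other spots of 1.04 and 1.95 in Ehmt2+/+ replicates 1 and 2 and 1.79 and 2.13 in Ehmt2fl/fl replicates 1 and 2. For C1qa they were 1.23, 1.70, 1.76 and 1.50. For C1qb the ratios were 1.01, 2.14, 2.29 and 1.67, and for Csf1r 2.64, 5.16, 1.89 and 1.01. The ratios of Ehmt2+/+ replicate 2 rest on 2 UMIs of Cd68, 1 of C1qa, 1 of C1qb and 3 of Csf1r in the chosen spots. No gene that was left out fell below its level in the other spots. Cd68 and C1qb in Ehmt2+/+ replicate 1 and Csf1r in Ehmt2fl/fl replicate 2 lay within 5% of it. In the spots chosen with all 5 genes the olfactory receptors had ratios of 1.47, 2.12, 1.32 and 1.26. Below these lay Cd68, C1qa and C1qb in Ehmt2+/+ replicate 1, Cd68 and C1qa in replicate 2, and Csf1r in Ehmt2fl/fl replicate 2. The other ratios given here lay above them.

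The same question was put to all spots at equal depth. After each spot was thinned to 500 UMIs, C1qa was found in 12.6% of the spots with Cd68 and 9.27% of those without in Ehmt2fl/fl replicate 1, and in 9.34% and 7.50% in Ehmt2fl/fl replicate 2. In Ehmt2+/+ it was found in 2.13% and 1.40% in replicate 1 and in 1.96% and 1.72% in replicate 2, with only 2 spots holding both genes in each section. Of the 15 pairs among the 5 genes and C1qc, the second gene was more frequent beside the first in 12 and 13 pairs in Ehmt2fl/fl and in 4 and 5 pairs in Ehmt2+/+. At 500 UMIs per spot the counts in Ehmt2+/+ are too few to show whether the genes lie together. The 15 pairs share genes, and pairs of background genes were not counted. The pair counts in Ehmt2fl/fl therefore do not show it either.

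The share of spots with at least 2 UMIs of the 5 genes asks how much of each section was rich in these markers. It was 6.95% (95% Clopper-Pearson interval 6.33 to 7.61) and 0.534% (0.385 to 0.721) in Ehmt2+/+ replicates 1 and 2. In Ehmt2fl/fl replicates 1 and 2 it was 11.7% (10.9 to 12.5) and 9.80% (9.08 to 10.5). The genotypes did not overlap, with means of 10.7% ± 1.33 (SD, n = 2) in Ehmt2fl/fl and 3.74% ± 4.54 in Ehmt2+/+. The exact two-sided permutation test over the sections gave p = 0.333, the smallest that 2 against 2 sections allow. At an equal depth of 500 UMIs per spot they were 0.0326% and 0.229% in Ehmt2+/+ and 4.27% and 2.32% in Ehmt2fl/fl. Thinning thus lowered Ehmt2+/+ replicate 1, whose spots were deepest, below replicate 2, and left the genotypes apart. The intervals cover counting error only.

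**Figure D3:**
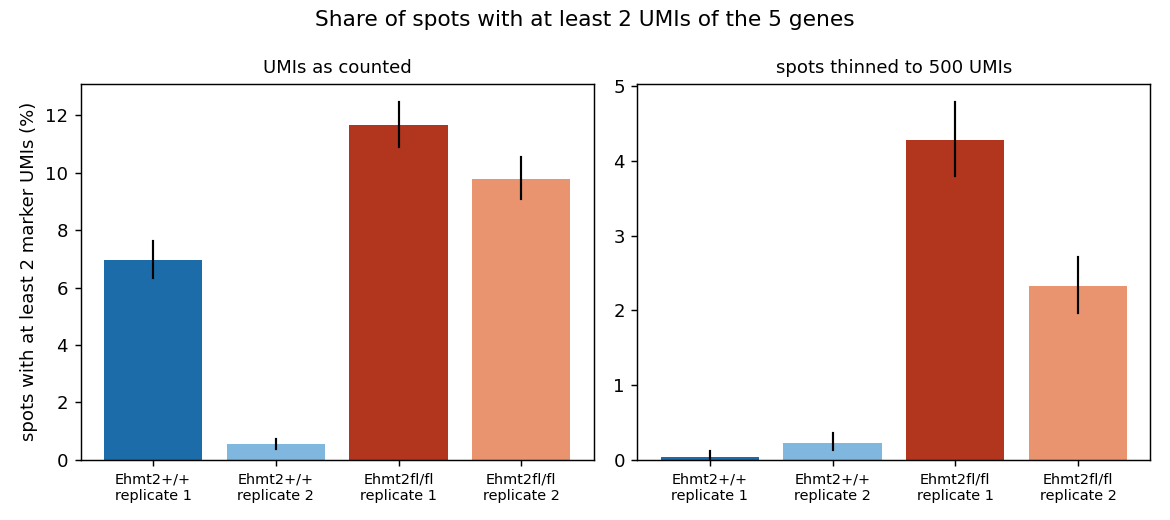
Bars give the percent of spots with at least 500 UMIs that held 2 or more UMIs of the 5 genes in each section, as counted (left) and with every spot thinned to 500 UMIs (right); black lines are 95% Clopper-Pearson intervals. Both Ehmt2fl/fl sections lie above both Ehmt2+/+ sections in each panel, and Ehmt2+/+ replicate 1 falls from 6.95% to 0.0326% after thinning. The median olfactory receptor had the same order of genotypes after thinning.

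Summed over all spots with at least 500 UMIs, the marker genes took a larger share of the UMIs in Ehmt2fl/fl. Cd68 was at 24.0 and 25.5 CPM in Ehmt2+/+ and 178 and 123 CPM in Ehmt2fl/fl. C1qa was at 17.4 and 31.0 CPM against 207 and 138 CPM, and C1qb at 7.13 and 10.3 against 67.4 and 51.8. Csf1r was at 5.96 and 15.8 CPM against 85.0 and 75.7, and Lyz2 at 0.457 and 4.72 against 10.7 and 13.4. On the CPM scale both Ehmt2fl/fl sections were above both Ehmt2+/+ sections for each of the 5 genes, with an exact two-sided permutation p of 0.333 for each.

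**Figure D4:**
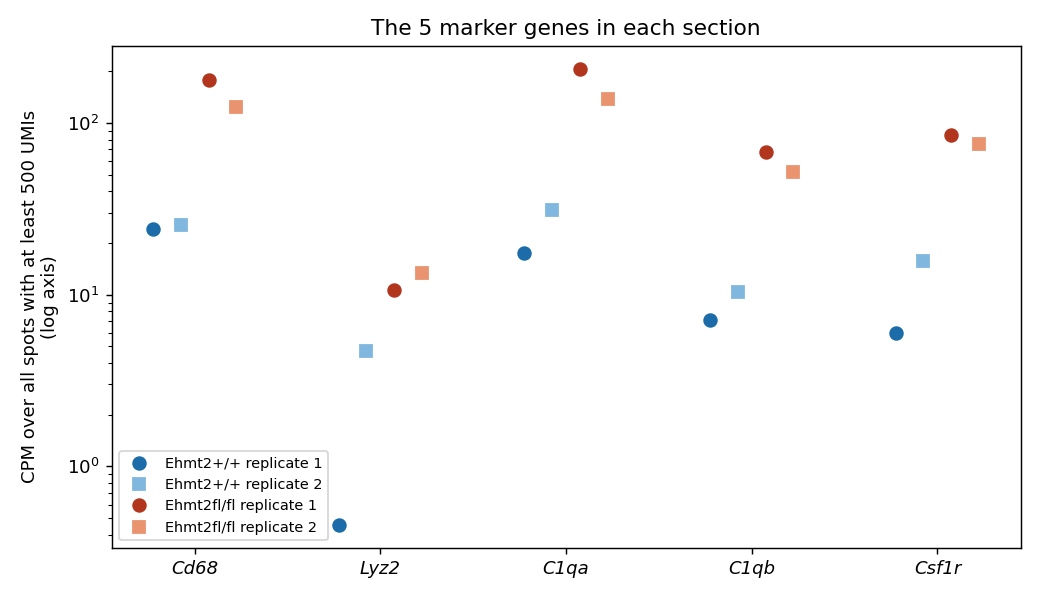
Level of each of the 5 marker genes in CPM (y axis, log axis) summed over all spots with at least 500 UMIs of a section, 1 point per section. Both Ehmt2fl/fl sections lie above both Ehmt2+/+ sections for each gene, as for Cd68 at 178 and 123 CPM against 24.0 and 25.5 CPM. In a fit on library sizes the median log2 fold change over all genes was 1.69.

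With TMM factors, which scale each section to its bulk of genes, the differences were smaller and none was called. Among 20053 genes tested with edgeR over all these spots, 11 were called higher in Ehmt2fl/fl and 11 lower (0.0549% each, Benjamini-Hochberg adjusted p under 0.05). The log2 fold changes of Ehmt2fl/fl against Ehmt2+/+ were 0.56 for Cd68, 1.002 for C1qa, 0.84 for C1qb, 1.20 for Csf1r and 0.95 for Lyz2, each with an adjusted p of 0.863. Cd68 and C1qb overlapped between the genotypes on this scale, and C1qa, Csf1r and Lyz2 did not. These calls depended on the sections and the scaling. With a section left out, its genotype has 1 section, which is assumed to vary like the 2 of the other genotype, so these p-values rest on the spread of that genotype alone. Without Ehmt2+/+ replicate 2, edgeR called Lyz2 (1.84, adjusted p = 0.000223) and Csf1r (0.90, adjusted p = 0.0111), and Cd68 turned to −0.19. Without Ehmt2+/+ replicate 1 it called C1qb (1.58, adjusted p = 0.00711). With library sizes in place of TMM factors it called Cd68 (2.61, adjusted p = 0.023), C1qa (2.84, adjusted p = 0.0308), C1qb (2.78, adjusted p = 0.0323) and Csf1r (2.90, adjusted p = 0.0443), around a median of 1.69 over all genes. Of the 18 macrophage identity genes 0 were called and 16 did not overlap, all higher in Ehmt2fl/fl, where 20.4% of all genes tested were higher and 17.2% lower without overlap. Their median log2 fold change was 1.16, against 0.25 over all genes. Among 1104 olfactory receptors tested 35.2% did not overlap and were higher, with a median of 0.81. Background genes were thus also higher in Ehmt2fl/fl, and more macrophages and more RNA per macrophage cannot be told apart in summed spots.

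The genes called over all spots lay outside the marker lists. The 5 largest positive log2 fold changes belonged to Gm20815, Gm20825, Gm21693, Gm20795 and Gm21118 on the Y chromosome, near-identical copies whose counts are uncertain. Gm20815 had 0 UMIs in both Ehmt2+/+ sections and 148 and 556 in Ehmt2fl/fl. The largest negative were of Fam13a (−5.16), Sel1l (−4.70), Rbpjl (−4.67), Unc5a (−4.12) and Dusp26 (−4.06). Rbpjl encodes a transcription factor of acinar cells and had 4166 and 417 UMIs against 104 and 101. DESeq2 called 11 genes higher and 275 lower (1.37%), of which 8 in all were shared with the edgeR calls. Without Ehmt2+/+ replicate 2 edgeR called 9348 genes higher and 7305 lower, without Ehmt2+/+ replicate 1 it called 218 and 161, and without an Ehmt2fl/fl section at most 2 in a direction. Here too the spread came from the other genotype alone.

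Within the macrophage-marker-rich spots, 753 of the 2681 genes tested were higher in Ehmt2fl/fl without overlap (28.1%) and 510 lower (19%), but none was called with edgeR (0%). The smallest adjusted p was 0.0844, and at an unadjusted p under 0.05 there were 273 genes higher and 237 lower. DESeq2 called 19 higher (0.709%) and 51 lower (1.9%). Without Ehmt2+/+ replicate 2, whose 42 spots held 53649 UMIs, edgeR called 437 genes higher (9.88%) and 774 lower, and without replicate 1 it called 32 and 61. Without Ehmt2fl/fl replicate 1 it called 0 and 0, and without replicate 2 it called 5 and 1. With library sizes in place of TMM factors it called 250 higher (9.32%), without lymphoid spots 203 of 2744 (7.4%), and in spots with at least 3 marker UMIs 330 of 4087 (8.07%). The call thus depends on these libraries and settings, and the values below are given as levels with their spread. The spots were ranked by a score that itself was higher in Ehmt2fl/fl, so macrophage genes in them are not independent of the choice. A gene could also pass the filter on low counts through the sections of 1 genotype alone. The counts of genes higher or lower, called or without overlap, carry this limit.

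Maf, a transcription factor of resident macrophages, had 38, 3, 128 and 122 UMIs, or 56.7, 65.2, 530 and 475 TMM-scaled CPM (log2 fold change 3.08, standard error 0.45, edgeR adjusted p = 0.0844). The replicates of each genotype lay close together. The value of Ehmt2+/+ replicate 2 rests on 3 UMIs, so the closeness in Ehmt2+/+ shows little about the spread. Maf passed the filter on low counts through its Ehmt2fl/fl sections, so its fold change and adjusted p are a description.

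The same order was seen for Ccl6, Ccl9, Pf4 and Ctss, where 28.1% of all genes tested were higher without overlap. Ccl6 was at 224, 348, 2053 and 1637 TMM-scaled CPM, and Ccl9, another CC chemokine, at 97.0, 86.9, 675 and 674. Pf4, the platelet factor 4 gene that tissue macrophages also express, was at 41.8, 109, 418 and 448. Ctss, the cathepsin of antigen-presenting cells, was at 130, 174, 782 and 553 with a log2 fold change of 2.20 (standard error 0.45, edgeR adjusted p = 0.0844). None of these 4 genes overlapped between the genotypes. C1qc, the third C1q chain, had 10 and 0 UMIs in Ehmt2+/+ and 29 and 20 in Ehmt2fl/fl. Apoe, which encodes the lipid carrier apolipoprotein E, did overlap, at 112, 261, 695 and 191 TMM-scaled CPM, and Cd74, the MHC class II chaperone, was at 146, 761, 608 and 378.

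By list, levels are given as CPM summed over every measured member, since a gene can pass the filter on low counts through the sections where it is high. Macrophage identity genes were at 226, 559, 3199 and 2549 CPM in the chosen spots, and pan-leukocyte genes at 372, 596, 3672 and 2681. Inflammatory monocyte genes were at 299, 522, 4389 and 3313 CPM and chemokine and colony-stimulating factor genes at 384, 820, 5609 and 4229. In these 4 lists both Ehmt2fl/fl sections were above both Ehmt2+/+ sections. Lists of other cells were ordered in the same way: fibroblast genes were at 894, 1212, 3848 and 3423 CPM, endothelial genes at 138, 280, 680 and 469, neutrophil genes at 36.0, 224, 607 and 658, and proliferation genes at 39.5, 168, 382 and 432. The order was thus not limited to macrophage lists. MHC class II genes overlapped, at 117, 857, 1250 and 801 CPM, as did lysosome genes, at 6896, 6095, 9463 and 6668. Olfactory receptors were at 453, 12265, 12917 and 17970 CPM, so the background was also lowest in Ehmt2+/+ replicate 1 and was near the level of Ehmt2fl/fl in replicate 2. Its part in the list levels was not tested, and neither was that of the digestive enzymes, which took 61.9%, 40.8%, 12.6% and 11.4% of the same UMIs.

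Among genes that were lower without overlap, those with the smallest p included products of the exocrine pancreas. Tff2, a trefoil factor of mucous epithelium, had 1111 and 46 UMIs in the chosen spots of Ehmt2+/+ and 24 and 26 in Ehmt2fl/fl (log2 fold change −3.74, standard error 0.48, edgeR adjusted p = 0.0844). Reg2, a regenerating protein of the exocrine pancreas, had 1927 and 44 against 14 and 13. The acinar products Klk1 and Rnase1 had 1989 and 56 and 2094 and 57 UMIs against 31 and 34 for each gene. The metabolic enzyme gene Hagh had 72 and 7 against 2 and 3. The genes that were higher and had the smallest p included, beside Maf, 3 multicopy genes of the Y chromosome, Gm20914, Gm20854 and Gm21310. Gm20854 had 0 UMIs in both Ehmt2+/+ sections and 78 and 188 in Ehmt2fl/fl, and so passed the filter on low counts through Ehmt2fl/fl alone.

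**Figure D5:**
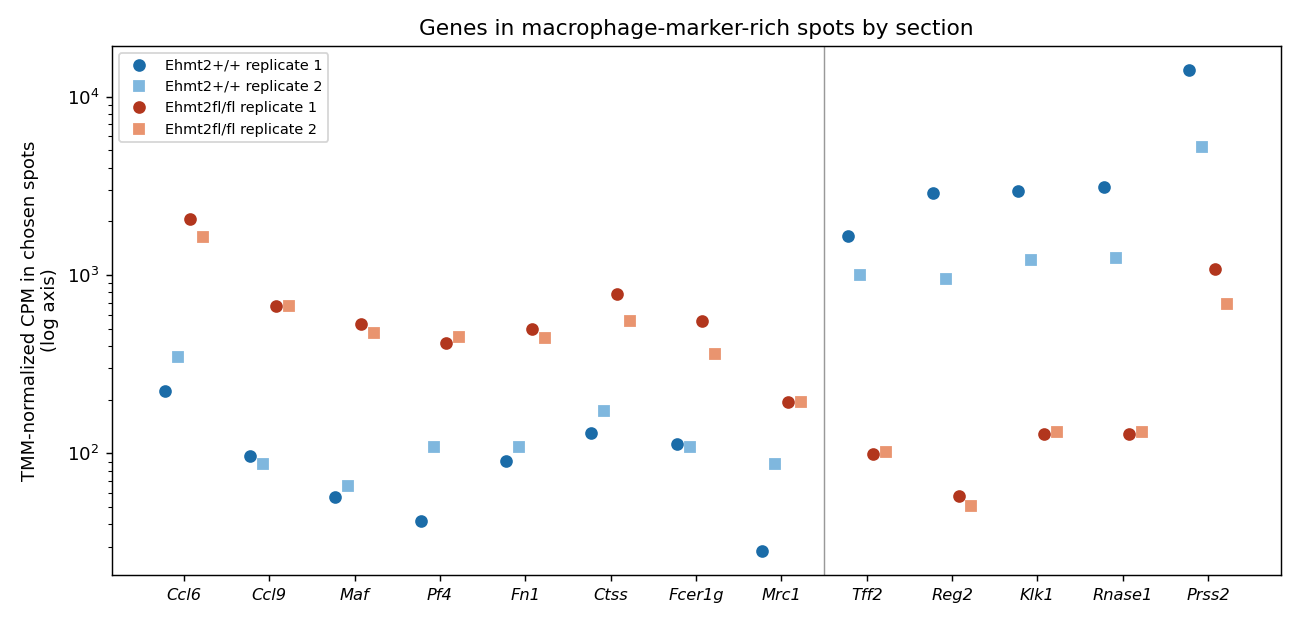
TMM-scaled CPM (y axis, log axis) of 13 genes summed over the macrophage-marker-rich spots of each section, 1 point per section; the grey line separates genes of macrophages and matrix from epithelial genes. Maf lies at 530 and 475 in Ehmt2fl/fl and at 56.7 and 65.2 in Ehmt2+/+, while Reg2 lies at 57.9 and 50.7 against 2877 and 956.

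Whether the genotype difference in the chosen spots departed from that in the other spots was tested with the interaction of genotype and membership, section as a block. Mrc1 was at 0.46 (standard error 0.39, edgeR adjusted p = 0.641) and Ccl6 at 0.68 (standard error 0.29, adjusted p = 0.255). Over all 19992 genes tested 224 were called higher (1.12%) and 8 lower (0.04%), around a median of 0.68 rather than 0. With library sizes in place of TMM factors the median was −0.08 and the counts were 1 and 26, and DESeq2 called 0 in each direction, with 47 higher and 106 lower at an unadjusted p under 0.05. The 8 lower genes were Ighg3, Chgb, Ins1, Chga, Iapp, Gcg, Pcsk1n and Ins2, which but for the immunoglobulin gene Ighg3 are genes of islet endocrine cells. Ins1 had 1002 UMIs in the chosen spots of Ehmt2+/+ replicate 1 and 3, 45 and 34 in the other sections. Its log2 difference was −2.83 and turned to 0.22 without that replicate, where the median over all genes was 0.99. The counts moved to 102 and 3 genes without Ehmt2+/+ replicate 1, to 605 and 13 without Ehmt2+/+ replicate 2, to 3 and 0 without Ehmt2fl/fl replicate 1, and to 1 and 5 without Ehmt2fl/fl replicate 2.

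Other kinds of spots were also set beside the chosen ones. In the 200 spots per section richest in collagen and proteoglycan genes, macrophage identity genes were at 374, 558, 2117 and 2040 CPM, above the chosen spots in Ehmt2+/+ replicate 1, level with them in replicate 2, and below them in both Ehmt2fl/fl sections. In 440 spots with a high share of Apoe, at least 2 of its UMIs and none of the 5 genes they were at 143, 629, 2440 and 1391 CPM. Other myeloid lists were also higher in the collagen-rich than in the chosen spots of Ehmt2+/+ replicate 1. Resident macrophage genes were at 187 against 100 CPM, inflammatory monocyte genes at 495 against 299 and chemokine genes at 601 against 384. In replicate 2 they were at 372 against 261, 662 against 522 and 699 against 820. In both Ehmt2fl/fl sections these lists were lower in the collagen-rich spots. These values describe the same sections and were not tested.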

How the data were processed

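CytAssist Visium libraries of 4 sections were counted by the authors with Space Ranger (2.0.1 per the file headers) on mm10 with the mouse probe set, and the deposited files hold raw UMI counts for each spot and gene, without normalization. Of 32589 features 304 deprecated probes were left out here, leaving 32285. Files of other kinds (tissue marks without barcodes) were not used.

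The chosen spots and the gene lists were set with earlier results of these data known. Spots of a section share a mouse, so counts were summed per section and tested with edgeR 4.0.16 in R 4.3.3 (quasi-likelihood test, TMM factors, genes kept by filterByExpr at a minimum of 10 counts, adjusted p under 0.05 after Benjamini-Hochberg); DESeq2 1.42.0, library sizes, no enzymes, no filter, other choices of spots and each section left out were alternatives. Named genes were the 5 rule genes, the most abundant and defining list genes, genes past 2-fold in every section, and up to 5 genes per direction and fit, called with the largest change or else not overlapping with the smallest p. Genes that led over the 3 sections with 200 spots were named after their values were seen. Shares were compared with exact permutation tests (scipy 1.17.1). The fits were tested on simulated data whose spread was set beforehand and differs from that fitted here, so this checks the code only. The labels give each section a number of its own without saying what it marks, so p-values measure the spread between these 4 sections, which may be technical. Gene positions are from GENCODE M21 and promoters from RefSeq, both GRCm38. A gene that the rule would name is not reported here.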

Additional observations from a re-analysis of the deposited data

Results flagged for a closer look

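By edgeR's test, the genotype difference in the chosen spots departed from that in the other spots for 224 genes higher and 8 lower. DESeq2 called 0 in each direction, and edgeR with library sizes in place of TMM factors called 1 and 26. In the main edgeR fit the median log2 difference over all genes was 0.68 rather than 0. The largest fitted log2 differences of called genes were 10.2 for Tmem37, 4.48 for Klhl3, 3.98 for Srek1ip1, 3.95 for Eif5b and 3.85 for Ncoa7. Tmem37 had 0 UMIs in the chosen spots of both Ehmt2+/+ sections and 10 and 15 in those of Ehmt2fl/fl, so its fitted value depends on the prior count and is no bound. The smallest were −4.61 for Ighg3, −3.16 for Chgb, −2.83 for Ins1, −2.67 for Chga and −2.66 for Iapp.

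Spots with fewer than 500 UMIs, which the choice left out, also held UMIs of the 5 marker genes. They were at 103 and 175 CPM in Ehmt2+/+ replicates 1 and 2 and at 680 and 551 CPM in Ehmt2fl/fl replicates 1 and 2, from 54, 179, 336 and 377 UMIs, where a count of 0 would allow 5.73, 2.93, 6.07 and 4.38 CPM.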

How the results depend on the processing

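No paired analysis was possible because no number in the labels is shared between the genotypes, and replicates 1 and 2 only name sections here. In the chosen spots, 0 genes were called higher in Ehmt2fl/fl and 0 lower, against 19 and 51 with DESeq2, 250 and 24 with library sizes in place of TMM factors, 8 and 5 without digestive enzymes, 74 and 46 in spots with at least 1000 UMIs, 330 and 153 with at least 3 marker UMIs, 9 and 24 with the 100 highest-scoring spots, 2 and 3 with spots thinned to 500 UMIs, and 203 and 146 without lymphoid spots. Leaving out 1 section at a time, with the spread taken from the other genotype, gave 0 to 437 higher and 0 to 774 lower. Over all spots, 11 and 11 became 388 higher with library sizes and 275 lower with DESeq2, and 0 to 9348 and 0 to 7305 with a section left out. For the interaction, 224 higher became 0 with DESeq2, 1 with library sizes, 46 with at least 3 marker UMIs, 100 with the 100 highest-scoring spots and 86 without lymphoid spots. The 8 lower became 0, 26, 0 and 5 under the first 4 of these, 0 with thinned spots, 2 with the score taken per UMI outside digestive enzymes and 1 without islet spots. With a section left out they were 1 to 605 and 0 to 13. Genes 2-fold higher in the chosen spots fell from 1 to 0 with at least 1000 UMIs, at least 3 marker UMIs, thinned spots, no lymphoid spots, the score per UMI outside enzymes, the score without Cd68, C1qa or Csf1r, and CPM without enzymes, and were 1 to 10 (lower, 0 to 0) with a section left out. The median ratio of the macrophage identity list over the sections, 1.89, was 1.65 with at least 3 marker UMIs, 2.05 with the 100 highest-scoring spots, 1.37 thinned, 1.69 with the score per UMI outside enzymes, 1.73 and 1.61 without Cd68 and C1qa in the score, 1.59 with CPM without enzymes, and 1.83 to 1.94 with a section left out. The median stayed above 1 in each of these, but single sections ran from 0 to 2.84 thinned. The share of marker-rich spots differed by 3.79 to 10.2 percentage points with a section left out.

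Signs turned for 7 genes. Over all spots these were Cd68 (−0.19 without Ehmt2+/+ replicate 2, 1.63 at most with another section left out) and Apoe (−0.33 without Ehmt2fl/fl replicate 1, 1.87 at most). In the interaction, with at least 3 marker UMIs and with thinned spots, they were Ighg3 (0.17 and 6.50), Chgb (1.40 and 5.88), Ins1 (1.04 and 10.0), Chga (0.10 and 11.0) and Iapp (0.54 and 9.64). Without Ehmt2+/+ replicate 1 Ins1 was 0.22 and Iapp 0.64, with −3.67 and −4.33 as their lowest values with another section left out, and without islet spots they were 0.11 and 0.76. These values stand beside a median over all genes that was itself above 0. It was 1.18 with at least 3 marker UMIs and 6.73 with thinned spots. Without Ehmt2+/+ replicate 1 it was 0.99, and without islet spots 0.70. Thinning left only 2 and 18 chosen spots in Ehmt2+/+ replicates 1 and 2. The cause was not tested. The alternatives on islet spots and deprecated probes were chosen after seeing the data. The chosen spots of Ehmt2+/+ replicate 2 held 53649 UMIs, 90 of them of the marker genes, which limits each comparison with them.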

Other observations

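Other lists varied from section to section in the macrophage-marker-rich spots. Adipocyte genes, led by Fabp4, a fatty acid carrier that macrophages also express, had ratios of chosen to other spots of 1.44, 5.88, 1.26 and 2.13 in Ehmt2+/+ replicates 1 and 2 and Ehmt2fl/fl replicates 1 and 2. Red blood cell genes, led by Hba-a2, had ratios of 0.863, 3.24, 1.70 and 3.50. T and NK cell genes had ratios of 0.706, 2.17, 1.71 and 1.06, with 4 UMIs of Cd3e in Ehmt2+/+ replicate 2 as the most counted gene there. Endothelial genes, led by Plvap, stayed closer to 1, at 1.15, 1.24, 1.06 and 0.850. Proliferation genes had ratios of 1.13, 1.53, 1.43 and 1.40. These values were not tested, and the olfactory receptors had 1.47, 2.12, 1.32 and 1.26 in the same spots.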
